A study of Homo sapiens with 12 samples.

Results

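The data describe 10 genes that mark epithelial or mesenchymal state, CDH1, EPCAM, KRT8, KRT18 and KRT19 on the epithelial side and CDH2, VIM, FN1, ZEB1 and SNAI2 on the mesenchymal side, in PC-3 cells. A gene was a member if the RefSeq transcript that the array annotation gives for at least 1 of its probes belongs to it, and all 10 had probes, 15 in number on 24 spots, among 25748 genes tested. PC-3 is an established human prostate adenocarcinoma line that grows without androgen. The question was whether stable PIM1, or the form of NFATC1 given to the cells, shifts these markers towards either state.

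The 6 groups, written here by what the samples' labels state, had 2 samples each, 12 in all. Every cell population was a pool selected for stable transfection, with a fluorescent Td-Tomato plasmid cotransfected, and carried either a PIM1 vector or the empty control vector. Control cells had the control vector, and PIM1 cells had the PIM1 vector. WT and MM cells had the control vector plus a transiently given NFATC1 vector, wild-type in WT and multi-mutant in MM, in which the sites phosphorylated by PIM1 are replaced. PIM1 + WT and PIM1 + MM cells had the PIM1 vector plus the same NFATC1 vectors. Controls without NFATC1 are not labelled as having had an empty transient vector. The study's text gives more than one time from transfection to RNA extraction, the methods naming the following day and another passage a later time, so the time is not settled here.

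Each of 6 two-colour arrays held 2 samples, control with PIM1, WT with MM and PIM1 + WT with PIM1 + MM, and dyes were not swapped. Control, WT and PIM1 + WT were labelled with Cy3 and the others with Cy5, so PIM1 minus control, WT minus MM and PIM1 + WT minus PIM1 + MM compare different dyes, and a dye difference cannot be told apart from the groups there. PIM1 + WT minus WT lies within Cy3 and PIM1 + MM minus MM within Cy5. Values are quantile-normalized log2 intensities, and a gene was called where limma gave an adjusted p (Benjamini-Hochberg over all genes) below 0.05 with a log2 fold change of 0.1 or more in size. The labels do not say that the samples of a group came from separate cultures, so p-values measure the spread between these samples, which may be technical. Only 2 samples a group limit the precision, and in bulk RNA fewer cells of a type and less RNA per cell cannot be told apart.

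Epithelial cells hold to one another through E-cadherin junctions and carry simple keratins, whereas mesenchymal cells express N-cadherin, vimentin and matrix proteins such as fibronectin and move singly. The passage between them, epithelial to mesenchymal transition, is driven by zinc finger repressors that bind E-box motifs in the CDH1 promoter, among them ZEB1 and SNAI2. Carcinoma cells often hold markers of both states at once, and PIM1 is a serine/threonine kinase linked to motility of prostate cancer cells.

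The targeted genes were looked at first. PIM1 had a log2 level of 9.85 and 10.05 in control and of 10.08 and 10.32 in PIM1 cells, and it was not called in PIM1 minus control (0.25, SE 0.10, adjusted p = 0.107), in PIM1 + WT minus WT (-0.23, adjusted p = 0.137) or in PIM1 + MM minus MM (0.15, adjusted p = 0.339). Its probes therefore do not check the PIM1 labels here, and whether they lie within the vector's insert is not given in the sources used here. Across dyes, PIM1 signal was called lower in PIM1 + WT minus PIM1 + MM (-0.36, adjusted p = 0.0403). NFATC1 stood at 9.81 and 9.88 in MM against 7.99 and 8.06 in WT, a difference of -1.82 for WT minus MM (SE 0.07, adjusted p = 3.65e-05). In PIM1 + MM it was at 9.65 in both samples, and in PIM1 + WT at 7.57 and 7.59, against 7.56 and 7.60 in control. WT minus control was at 0.44 for NFATC1 and was not called (SE 0.07, adjusted p = 0.0687). In PIM1 cells NFATC1 was at 6.81 and 7.02, called lower than in control (-0.67, adjusted p = 0.000233), and it was also called lower in PIM1 + WT minus WT (-0.44, adjusted p = 0.00205). Its probes thus check the MM labels and not the WT label. By the study's account, overexpression of PIM1 and/or NFATC1 in its samples was established separately by real-time qPCR. The raw medians of the channels were 86 to 139 in Cy3 and 176 to 318 in Cy5, and between 56.9% and 69% of spots passed as well above background. ACTB and GAPDH were 0.53 and 0.56 higher in PIM1 than in control, and at -0.10 and -0.08 under median centring of each channel, while TBP was at -0.05 and -0.49. Median centring moved the median of all genes to 0.13 in PIM1 minus control and 0.14 in PIM1 + WT minus WT, so directions given with it are relative to that shift.

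**Figure D1:**
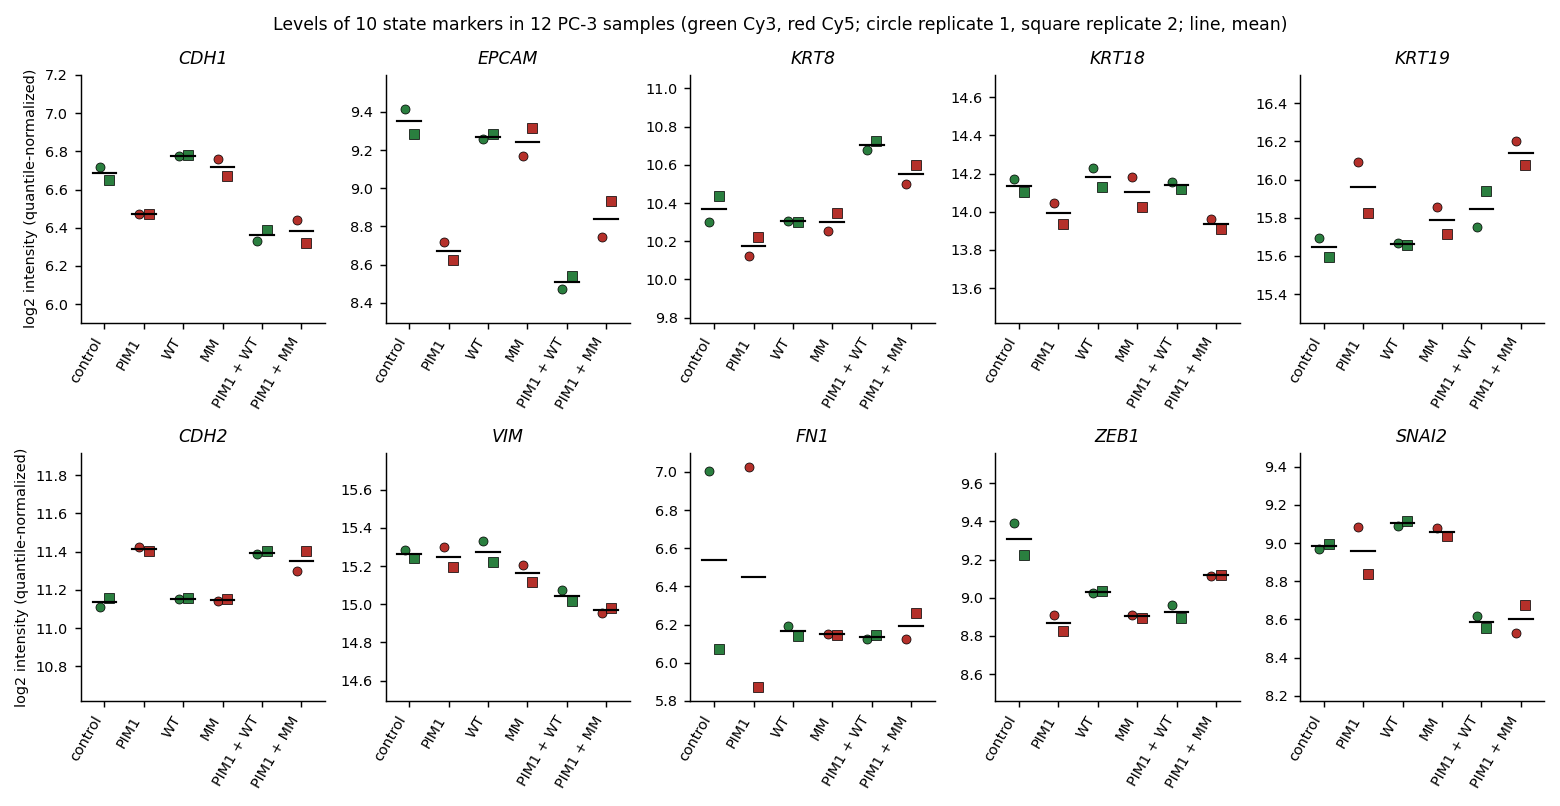
Quantile-normalized log2 intensity of each member in the 12 samples (y axis, range at least 1.3) by group (x axis), green for Cy3 and red for Cy5, circles for replicate 1, squares for replicate 2 and lines for the mean of 2. At the gene level, EPCAM and CDH1 are lower, and CDH2 higher, in the 6 samples with stable PIM1 than in the 6 without, and FN1 is raised in the 2 samples of 1 array.

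EPCAM and CDH1 were lower wherever PIM1 was stably present, with or without NFATC1. EPCAM encodes a surface glycoprotein of epithelia that mediates adhesion between cells. Its log2 level was 9.42 and 9.28 in control, 9.26 and 9.28 in WT and 9.17 and 9.31 in MM. With stable PIM1 it was 8.72 and 8.62 without NFATC1, 8.47 and 8.54 in PIM1 + WT and 8.74 and 8.93 in PIM1 + MM. The 6 samples without stable PIM1 lay above all 6 samples with it, and the gap in the order of group means from MM to PIM1 + MM was 0.40 against a pooled SD of 0.0855, while every other gap between neighbours was under 2 SD. EPCAM fell by 0.68 in PIM1 minus control (SE 0.08, ratio 0.625, adjusted p = 0.000432), by 0.76 in PIM1 + WT minus WT (SE 0.08, ratio 0.589, adjusted p = 0.000204) and by 0.40 in PIM1 + MM minus MM (SE 0.08, ratio 0.756, adjusted p = 0.00987), these being limma's values as throughout. These 3 comparisons share no sample, but each sets selected cells with the PIM1 vector against selected cells with the control vector. WT shares its arrays with MM and PIM1 + WT with PIM1 + MM, and the fit uses a common estimate of the spread. In all of them, a difference between the selected pools cannot be told apart from one of PIM1. The third was not called without MM replicate 2 (-0.33, adjusted p = 0.0777) or without PIM1 + MM replicate 1 (-0.31, adjusted p = 0.0536).

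CDH1 encodes E-cadherin, the adhesion protein of adherens junctions. Its single probe, printed on 10 spots, stood close to the background. The spots well above background numbered 9 and 9 of 10 in control, 10 and 10 in WT and 10 and 2 in MM, against 0 and 0 in PIM1, 1 and 1 in PIM1 + WT and 1 and 0 in PIM1 + MM. No group with stable PIM1 thus had the probe well above background on either array, for which a share of 0.5 of its spots was required. The log2 level was 6.72 and 6.65 in control, 6.77 and 6.78 in WT and 6.76 and 6.67 in MM. In PIM1 it was 6.47 and 6.47, in PIM1 + WT 6.33 and 6.39 and in PIM1 + MM 6.44 and 6.32, below every sample without stable PIM1. The measured differences were -0.21 in PIM1 minus control (SE 0.06, adjusted p = 0.0373), -0.42 in PIM1 + WT minus WT (SE 0.06, adjusted p = 0.00117) and -0.33 in PIM1 + MM minus MM (SE 0.06, adjusted p = 0.00619).

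Since the lower CDH1 groups have only a bound, the fold is given as one, on values normalized by loess within and Aquantile between arrays, where the brighter group's mean is set against the higher of the dim probe's signal and the lowest signal of a probe well above background. CDH1 was at least 1.12-fold higher in control than in PIM1, a bound open to dye bias, at least 1.33-fold higher in WT than in PIM1 + WT, and at least 1.17-fold higher in MM, where 1 of 2 arrays measured it, than in PIM1 + MM. On the background-subtracted processed signal the 3 differences were -0.87, -1.83 and -1.53, all called, but they are taken against groups in which 0 or 1 of 10 spots passed and so do not measure the size of the difference. The first, across dyes, turned to 0.26 under median centring (adjusted p = 0.272) and was not called without control replicate 1 (-0.18, adjusted p = 0.177), control replicate 2 (-0.25, adjusted p = 0.0704), PIM1 replicate 1 (-0.21, adjusted p = 0.0898) or PIM1 replicate 2 (-0.21, adjusted p = 0.0973), nor without either WT sample (adjusted p = 0.0674) or either PIM1 + WT sample (adjusted p = 0.0578). Normexp (-0.19, adjusted p = 0.0742) and loess (-0.17, adjusted p = 0.062) also ended it. In PIM1 + MM minus MM it was not called without MM replicate 1 (-0.29, adjusted p = 0.0509).

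**Figure D2:**
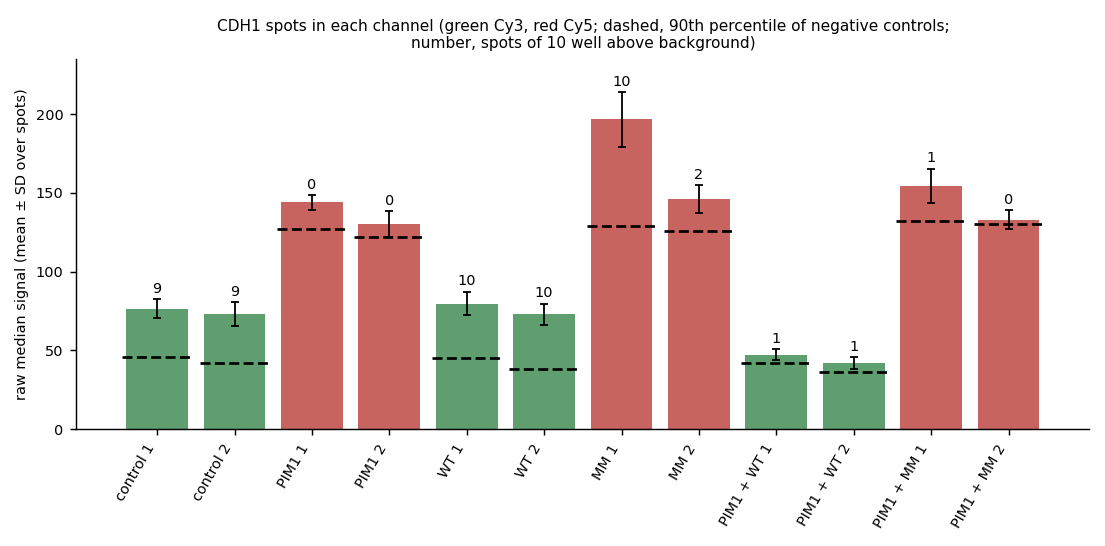
Raw median signal of the CDH1 probe (y axis, scanner units, mean over 10 spots with SD over spots) in each of the 12 channels (x axis), green for Cy3 and red for Cy5, with the 90th percentile of the negative controls as a dashed line and the number of spots well above background over each bar. Without stable PIM1, 5 of 6 channels have 9 or 10 such spots and MM replicate 2 has 2, and with it no channel has more than 1.

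At the gene level, none of the 3 keratins was called lower in a stable PIM1 comparison, though 1 probe of KRT18 was. KRT8 and KRT18 form the paired filaments of simple epithelia, and KRT19 is a further keratin of simple epithelia. KRT18 was at 14.17 and 14.10 in control, 14.05 and 13.93 in PIM1 cells, 14.23 and 14.13 in WT cells, 14.18 and 14.02 in MM, 14.15 and 14.12 in PIM1 + WT and 13.96 and 13.91 in PIM1 + MM. The gene was called in none of the 8 comparisons, but in PIM1 minus control its probe A_24_P42136 was called lower (-0.31, adjusted p = 0.0287) while A_32_P151544 was at 0.014 (adjusted p = 0.926). The gene's largest difference was 0.20 in PIM1 + WT minus PIM1 + MM (95% interval 0.04 to 0.37, adjusted p = 0.1).

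KRT19 was called higher in 1 of the 3 stable PIM1 comparisons. It was at 15.70 and 15.60 in control, 15.67 and 15.66 in WT and 15.86 and 15.72 in MM, against 16.09 and 15.83 in PIM1, 15.75 and 15.94 in PIM1 + WT and 16.20 and 16.08 in PIM1 + MM. The groups with and without stable PIM1 did not overlap within a matched pair. The difference was 0.31 in PIM1 minus control (adjusted p = 0.0537), 0.18 in PIM1 + WT minus WT (adjusted p = 0.249) and 0.36 in PIM1 + MM minus MM (SE 0.10, adjusted p = 0.0399), so only the last was called. Under median centring the first 2 turned to -0.37 (adjusted p = 0.403) and -0.11 (adjusted p = 0.833). The call was lost without any 1 of the 8 samples of control, WT, MM and PIM1 + MM, with values from 0.28 to 0.43.

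KRT8 was higher with stable PIM1 where NFATC1 was also given, by 1 of its 3 probes with MM and by 2 with WT. Its gene level was 10.30 and 10.44 in control, 10.12 and 10.22 in PIM1, 10.31 and 10.30 in WT and 10.26 and 10.35 in MM. It was 10.68 and 10.72 in PIM1 + WT and 10.50 and 10.60 in PIM1 + MM, above all other samples. KRT8 rose by 0.40 in PIM1 + WT minus WT (SE 0.07, adjusted p = 0.00287), by 0.25 in PIM1 + MM minus MM (SE 0.07, adjusted p = 0.0376) and by 0.38 in PIM1 + MM minus PIM1 (SE 0.07, adjusted p = 0.0112), and was at -0.20 in PIM1 minus control (adjusted p = 0.0759), which was called with slide as a block (adjusted p = 0.0314). These values are those of probe A_33_P3372368, the middle of 3 by signal, whose annotation is a non-coding KRT8 transcript. The brightest probe, A_23_P14072, agreed only in PIM1 + WT minus WT (0.32, adjusted p = 0.00814). It was at -0.07 in PIM1 + MM minus MM, at -0.21 in PIM1 + MM minus PIM1 and called at 0.27 in PIM1 minus control (adjusted p = 0.0202), and it rose by 0.64 in PIM1 + WT minus PIM1 + MM (adjusted p = 0.000465). The third probe, A_24_P67395, was called in no comparison. The KRT8 probes thus differ in sign in PIM1 minus control, PIM1 + MM minus MM and PIM1 + MM minus PIM1. The call in PIM1 + MM minus MM was lost without either sample of WT, MM or PIM1 + WT or without PIM1 + MM replicate 2 (0.20 to 0.30, adjusted p = 0.0606 to 0.184), and that in PIM1 + MM minus PIM1 without PIM1 + MM replicate 2 (0.33, adjusted p = 0.0643).

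**Figure D3:**
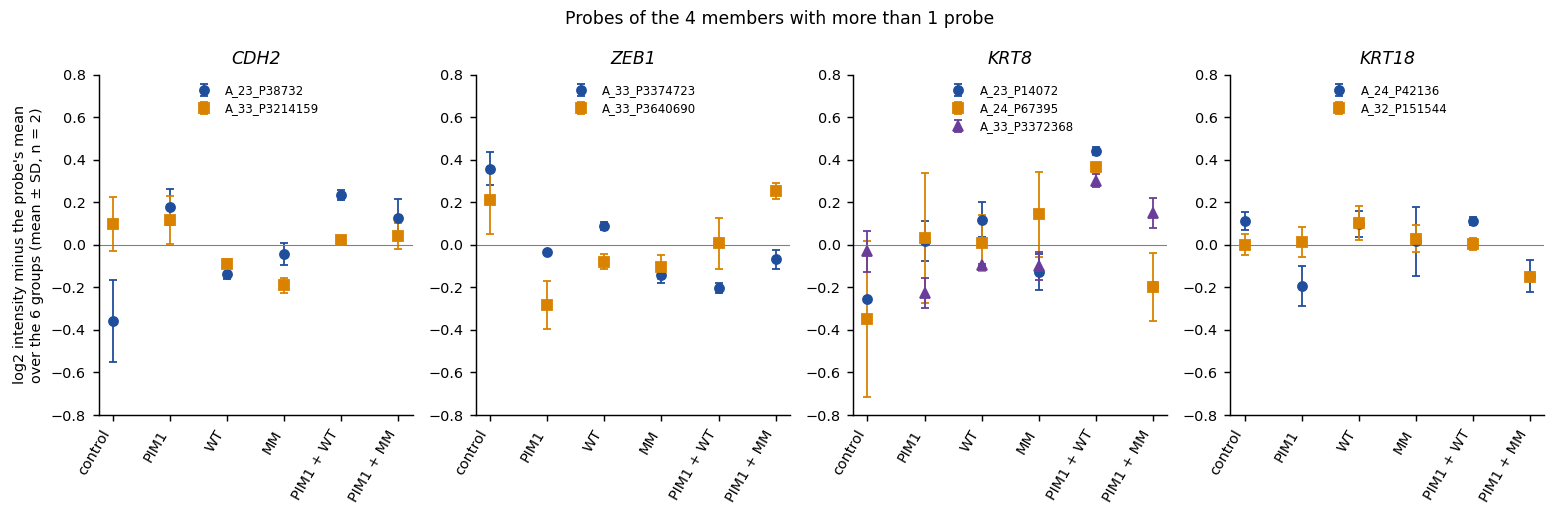
Mean log2 intensity of each probe in the 6 groups (x axis) minus that probe's mean over the groups (y axis, bars SD, n = 2) for the 4 members with more than 1 probe. In control the CDH2 probe A_23_P38732 lies below its mean and A_33_P3214159 above, and in PIM1 + MM the KRT8 probe A_33_P3372368 lies above its mean and the other KRT8 probes below.

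Among the mesenchymal members, CDH2 was the one that was higher with stable PIM1 throughout. CDH2 encodes N-cadherin, the cadherin of neural and mesenchymal cells. Its level was 11.11 and 11.16 in control, 11.15 and 11.16 in WT and 11.14 and 11.15 in MM, against 11.42 and 11.40 in PIM1, 11.39 and 11.40 in PIM1 + WT and 11.30 and 11.40 in PIM1 + MM. At the gene level, all 6 samples with stable PIM1 lay above all 6 without, and the gap between WT and PIM1 + MM in the order of means was 0.20 against a pooled SD of 0.0339. CDH2 rose by 0.28 in PIM1 minus control (SE 0.06, ratio 1.21, adjusted p = 0.00569), by 0.24 in PIM1 + WT minus WT (SE 0.06, ratio 1.18, adjusted p = 0.0109) and by 0.20 in PIM1 + MM minus MM (SE 0.06, ratio 1.15, adjusted p = 0.0339).

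The 2 CDH2 probes differed in this. A_23_P38732 rose by 0.54 in PIM1 minus control (adjusted p = 0.00243) and by 0.37 in PIM1 + WT minus WT (adjusted p = 0.0157), and A_33_P3214159 was at 0.02 (adjusted p = 0.917) and 0.11 (adjusted p = 0.371). In PIM1 + MM minus MM neither was called alone, at 0.17 (adjusted p = 0.25) and 0.23 (adjusted p = 0.0748). In control the first read 10.09 and 10.37 and the second 12.13 and 11.95, so that they moved in opposite directions between the samples and their mean has a smaller SD than either. The second read 11.97 and 11.96 in PIM1 + WT, so on it samples with and without stable PIM1 overlapped. Under median centring the gene's difference turned to -0.39 in PIM1 minus control and -0.05 in PIM1 + WT minus WT, neither called. It was not called in PIM1 minus control when the array shared by replicate 1 of control and of PIM1 was left out (0.24, adjusted p = 0.0688). In PIM1 + WT minus WT it was not called without any 1 of the 4 samples compared (0.24 to 0.25, adjusted p = 0.0587 to 0.0724), nor in PIM1 + MM minus MM without MM replicate 1 (0.20, adjusted p = 0.125), MM replicate 2 (0.21, adjusted p = 0.118) or PIM1 + MM replicate 2 (0.15, adjusted p = 0.165), or without either sample of WT (adjusted p = 0.0658) or PIM1 + WT (adjusted p = 0.0597).

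VIM encodes vimentin, the intermediate filament protein of mesenchymal cells, and FN1 the matrix glycoprotein fibronectin. VIM was among the bright members and was called lower in 2 comparisons of cells with NFATC1. It was 15.28 and 15.24 in control, 15.30 and 15.20 in PIM1, 15.33 and 15.22 in WT and 15.21 and 15.11 in MM, against 15.07 and 15.02 in PIM1 + WT and 14.96 and 14.98 in PIM1 + MM. These 4 samples were the lowest. VIM fell by 0.23 in PIM1 + WT minus WT (SE 0.07, adjusted p = 0.0286) and by 0.28 in PIM1 + MM minus PIM1 (SE 0.07, adjusted p = 0.0272), and was at -0.19 in PIM1 + MM minus MM (adjusted p = 0.0738) and -0.01 in PIM1 minus control (95% interval -0.16 to 0.14, adjusted p = 0.923). The first call was lost without WT replicate 1 (-0.18, adjusted p = 0.211), PIM1 + WT replicate 1 (-0.26, adjusted p = 0.079) or PIM1 + WT replicate 2 (-0.20, adjusted p = 0.156), and the second without PIM1 replicate 1 (-0.23, adjusted p = 0.103), PIM1 + MM replicate 1 (-0.27, adjusted p = 0.0772) or PIM1 + MM replicate 2 (-0.29, adjusted p = 0.0843). Median centring put the second at 0.0046.

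FN1 was not well above background except on 1 array. Its level was 7.004 in control replicate 1 and 7.03 in PIM1 replicate 1, which share that array, and 5.87 to 6.26 in the other 10 samples. The 2 raised samples belong to different groups, and FN1 was called in no comparison (-0.09, SE 0.35, 95% interval -0.88 to 0.71, in PIM1 minus control). Without that array FN1 was at 0.32 in PIM1 + MM minus PIM1 (adjusted p = 0.0419), between groups in which it was not well above background, against -0.26 with it. Of control and WT, a bound of at least 1.24-fold higher in control rests on that array, which is 1 of the 2 of control.

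Promoter sequence is printed for CDH2, VIM and ZEB1, the mesenchymal members with called differences whose starts the RefSeq table of GRCh38.p14 lists. Of the 10 members 5 had an entry, and the KRT8 entry, which starts within the gene, was not used. The 250 bases before the outermost start were searched on both strands for the E-box CAGGTG, read as CACCTG from the opposite strand, which ZEB1 and SNAI2 bind, and for GGAAA, read as TTTCC from the opposite strand, the core that NFAT proteins bind. The motifs do not overlap each other, and matches are in capitals. The windows, 5′ to 3′ on the gene's strand, are chr18:28177131-28177380 (minus strand) for CDH2, chr10:17227991-17228240 (plus strand) for VIM and chr10:31318167-31318416 (plus strand) for ZEB1.
CDH2: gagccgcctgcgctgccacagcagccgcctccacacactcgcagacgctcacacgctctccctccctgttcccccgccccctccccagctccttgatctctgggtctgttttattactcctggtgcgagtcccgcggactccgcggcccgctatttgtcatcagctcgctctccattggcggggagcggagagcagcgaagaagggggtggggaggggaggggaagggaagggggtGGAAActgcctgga
VIM: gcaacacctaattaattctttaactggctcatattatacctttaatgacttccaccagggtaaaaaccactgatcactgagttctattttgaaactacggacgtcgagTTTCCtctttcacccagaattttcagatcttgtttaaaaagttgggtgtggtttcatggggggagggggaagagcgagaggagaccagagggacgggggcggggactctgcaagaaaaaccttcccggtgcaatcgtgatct
ZEB1: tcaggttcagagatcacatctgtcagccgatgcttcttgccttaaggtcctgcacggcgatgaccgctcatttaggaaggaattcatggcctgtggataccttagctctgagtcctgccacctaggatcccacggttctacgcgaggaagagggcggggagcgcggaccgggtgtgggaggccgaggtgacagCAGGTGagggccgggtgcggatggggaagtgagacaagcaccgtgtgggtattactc
CDH2 and VIM each held 1 GGAAA core, starting 14 and 142 bases before the start, and no such E-box, and ZEB1 held 1 E-box at 57 bases and no GGAAA. The FN1 window held neither. Of 35116 windows of this length, 17.5% held the E-box and 55.6% the NFAT core, so these counts are a description of the letters and not of binding.

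The 2 repressors were called in different stable PIM1 comparisons. SNAI2 (also called Slug) was at 8.97 and 8.996 in control, 9.08 and 8.84 in PIM1, 9.09 and 9.12 in WT and 9.08 and 9.04 in MM, against 8.62 and 8.56 in PIM1 + WT and 8.53 and 8.68 in PIM1 + MM. The samples that carried both stable PIM1 and NFATC1 were the lowest 4, and the gap from PIM1 to PIM1 + MM in the order of means was 0.36 against a pooled SD of 0.0860. SNAI2 fell by 0.52 in PIM1 + WT minus WT (SE 0.09, ratio 0.698, adjusted p = 0.00175), by 0.46 in PIM1 + MM minus MM (SE 0.09, ratio 0.729, adjusted p = 0.00566) and by 0.36 in PIM1 + MM minus PIM1 (SE 0.09, adjusted p = 0.0278), and was at -0.02 in PIM1 minus control (95% interval -0.22 to 0.17, adjusted p = 0.902). The third call was lost without PIM1 replicate 1 (-0.24, adjusted p = 0.101) or PIM1 + MM replicate 1 (-0.28, adjusted p = 0.106), or without either WT sample (adjusted p = 0.0527). The stable PIM1 difference with NFATC1 minus that without it was -0.50 for WT (SE 0.12, adjusted p = 0.0503) and -0.43 for MM (SE 0.12, adjusted p = 0.0547), neither past the threshold.

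ZEB1 was lower with stable PIM1 in cells without NFATC1. It was 9.39 and 9.23 in control and 8.91 and 8.83 in PIM1 cells, and with NFATC1 9.02 and 9.04 in WT, 8.91 and 8.90 in MM, 8.96 and 8.89 in PIM1 + WT and 9.11 and 9.12 in PIM1 + MM. ZEB1 fell by 0.44 in PIM1 minus control (SE 0.07, ratio 0.736, adjusted p = 0.00126), with both probes called there (-0.39 and -0.49). It was at -0.10 in PIM1 + WT minus WT (adjusted p = 0.334), where the brighter probe, A_33_P3374723, was called alone (-0.29, adjusted p = 0.00673) and the other was at 0.09, and 0.21 in PIM1 + MM minus MM (adjusted p = 0.0544), and rose by 0.25 in PIM1 + MM minus PIM1 (SE 0.07, adjusted p = 0.0425). The last call came from probe A_33_P3640690 (0.53, adjusted p = 0.00785), while A_33_P3374723 was at -0.03 (adjusted p = 0.753), and it was lost without any 1 of the 10 samples outside control (0.21 to 0.29, adjusted p = 0.0628 to 0.136). The stable PIM1 difference was 0.66 higher with MM than without NFATC1 (SE 0.10, adjusted p = 0.00406), a contrast into which the dyes enter, and 0.34 higher with WT (SE 0.10, adjusted p = 0.0796).

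Counted over the 10 members, stable PIM1 gave a mixture of the 2 directions. In PIM1 minus control 1 member was called higher, CDH2, where 12.6% of all genes were, and 3 lower, CDH1, EPCAM and ZEB1, where 12.4% were. In PIM1 + WT minus WT 2 were called higher, KRT8 and CDH2, against 13.3% of all genes, and 4 lower, CDH1, EPCAM, VIM and SNAI2, against 14.0%. In PIM1 + MM minus MM 3 were called higher, KRT8, KRT19 and CDH2, against 10.0% of all genes, and 3 lower, CDH1, EPCAM and SNAI2, against 9.38%. The members' median difference was -0.12, -0.07 and -0.06 in the 3 comparisons, and the median over all genes was 0.0091, -0.0036 and 0.0034. Of the 5 epithelial members, the numbers called higher and lower were 0 and 2, then 1 and 2, then 2 and 2. Of the 5 mesenchymal members they were 1 and 1, then 1 and 2, then 1 and 1. No member reached an absolute log2 difference of 1 in any of the 8 comparisons. At the gene level, CDH1, EPCAM and CDH2 were called in all 3 comparisons in the direction that the mesenchymal state has for them. KRT8, called higher, and SNAI2, called lower, went the other way in both comparisons with NFATC1. So did ZEB1 in PIM1 minus control, VIM in PIM1 + WT minus WT and KRT19 in PIM1 + MM minus MM. Each of these was called in that comparison alone of the 3. The KRT8 rise in PIM1 + MM minus MM rests on 1 of its 3 probes, the others being at -0.07 and -0.34. The brighter CDH2 probe, A_33_P3214159, was not called alone in any of the 3.

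**Figure D4:**
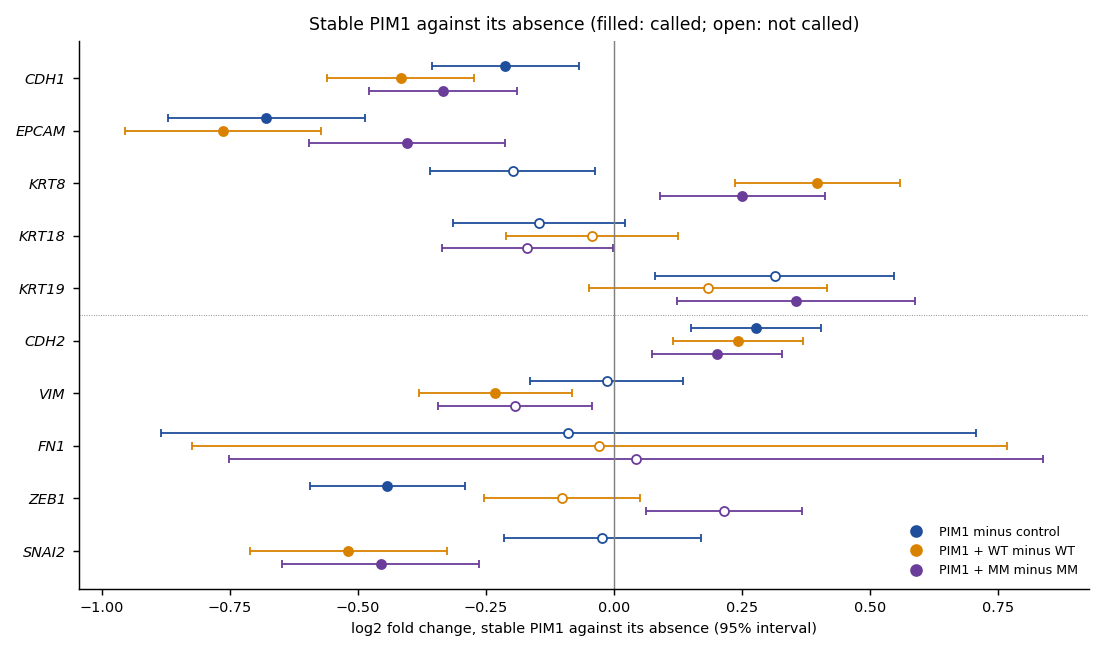
Log2 fold change of each member (x axis) with its 95% interval for stable PIM1 against its absence, without NFATC1 (blue), with WT (orange) and with MM (purple), filled where called, epithelial members above the dotted line. CDH1 and EPCAM lie left of 0 and CDH2 right of 0 in all 3, and SNAI2 lies near 0 without NFATC1 and near -0.5 with either form.

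Between the forms of NFATC1, 1 member was called with stable PIM1 and none without. NFATC1 signal itself was at -1.82 in WT minus MM and -2.07 in PIM1 + WT minus PIM1 + MM. The form given and its amount therefore cannot be told apart in these comparisons. PIM1 signal was also called lower in PIM1 + WT minus PIM1 + MM (-0.36), and it cannot be told apart from the form there. In WT minus MM none was called by limma, where 0.559% of all genes were called higher and 0.249% lower, none had an unadjusted p under 0.05, and the largest difference was 0.13, of ZEB1 (95% interval -0.03 to 0.28, adjusted p = 0.54). In PIM1 + WT minus PIM1 + MM, 0 members were called higher and 1 lower, against 8.54% and 7.50% of all genes. That was EPCAM, at -0.33 (SE 0.08, adjusted p = 0.0295), which was not called without PIM1 + WT replicate 1 (-0.30, adjusted p = 0.166), PIM1 + WT replicate 2 (-0.36, adjusted p = 0.0938), PIM1 + MM replicate 2 (-0.24, adjusted p = 0.171) or either WT sample (adjusted p = 0.0537), nor after normexp (-0.30, adjusted p = 0.0574), loess (-0.20, adjusted p = 0.122) or median centring (-0.07, adjusted p = 0.849). The difference between those 2 comparisons, an interaction from which a fixed dye difference drops out, was called by limma for 0 members (2 at an unadjusted p under 0.05), where 1.70% of all genes were called higher and 0.482% lower. Its largest values were -0.36 for EPCAM (95% interval -0.63 to -0.09, adjusted p = 0.173) and -0.32 for ZEB1 (95% interval -0.53 to -0.10, adjusted p = 0.133). With array as a random block both were called (adjusted p = 0.0363 for EPCAM and 0.0271 for ZEB1), and so was ZEB1 with the filter on low values applied in all channels (adjusted p = 0.0417).

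Wild-type NFATC1 alone, in WT minus control within Cy3, gave limma calls for 0 members (1 at an unadjusted p under 0.05), where 0.0854% of all genes were called higher and 0.148% lower. The member at an unadjusted p under 0.05 was ZEB1, at -0.28 (SE 0.07, adjusted p = 0.165). In PIM1 + MM minus PIM1, within Cy5, 2 members were called higher, KRT8 and ZEB1, against 5.20% of all genes, and 2 lower, VIM and SNAI2, against 7.16%. This comparison shares its samples with PIM1 + MM minus MM and with PIM1 minus control. Leaving out the array with the raised FN1 signals ended the calls of VIM (-0.23, adjusted p = 0.103) and SNAI2 (-0.24, adjusted p = 0.103) in it.

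**Figure D5:**
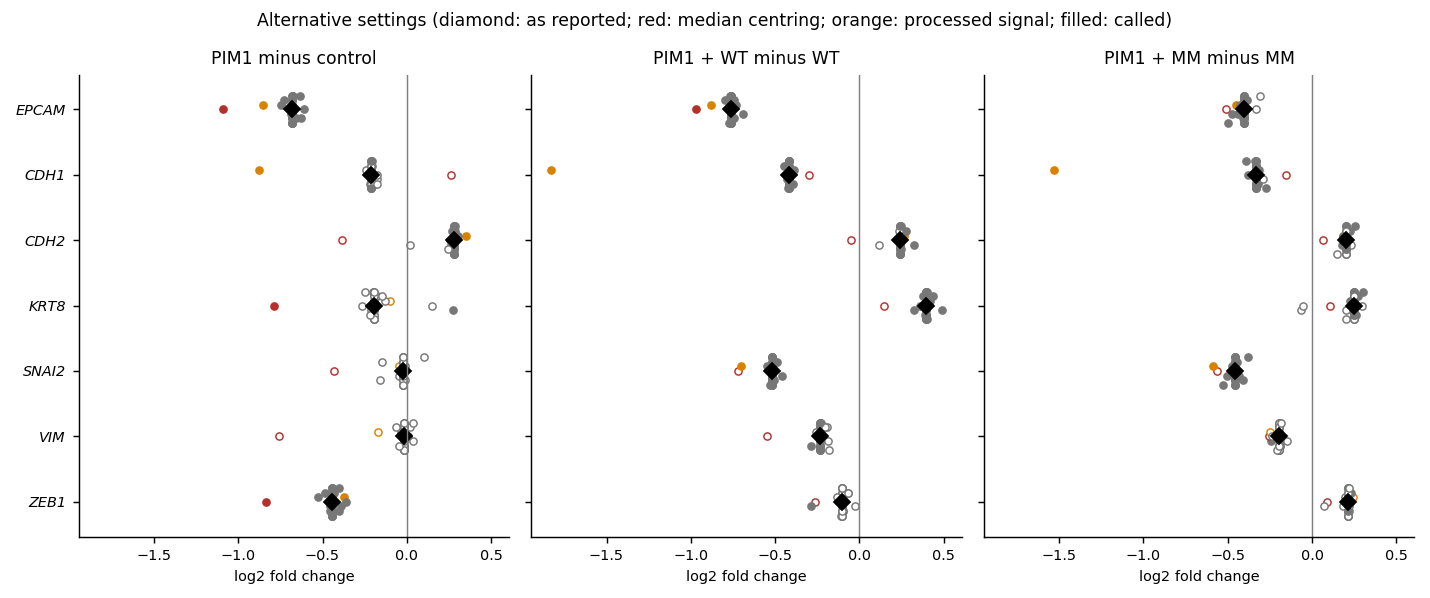
Log2 fold change (x axis, shared) of 7 members under each alternative processing setting or left-out sample for the 3 stable PIM1 comparisons, with diamonds for the values as reported, red for median centring, orange for the processed signal, grey for the rest, and filled circles where called. EPCAM lies left of 0 in every setting, CDH1 spreads to -1.83 on the processed signal, and CDH1 and CDH2 cross 0 in PIM1 minus control under median centring.

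Other genes of the 2 states were taken from lists of epithelial regulators, junctions, polarity and keratins (74 genes, 70 tested) and of mesenchymal regulators, cytoskeleton and matrix (59 genes, 56 tested). Calls on the epithelial side numbered 16 higher and 16 lower in PIM1 minus control, 14 and 13 in PIM1 + WT minus WT, and 15 and 10 in PIM1 + MM minus MM. On the mesenchymal side the counts were 21 and 4, 15 and 7, and 10 and 5. Among all genes the shares called higher and lower were 12.6% and 12.4%, 13.3% and 14.0%, and 10.0% and 9.38%. The mesenchymal median was 0.12, 0.02 and -0.04, and the epithelial median 0.03, -0.02 and 0.02. Without the array with the raised FN1 signals, 15 and 2 mesenchymal genes were called in PIM1 minus control, and under median centring 11 and 7. Within a dye, median centring left 2 and 0 in PIM1 + WT minus WT and 0 and 0 in PIM1 + MM minus MM. On the processed signal the mesenchymal counts in PIM1 + MM minus MM were 10 and 11, and with only the groups compared those in PIM1 + WT minus WT were 20 and 15. These lists were chosen with results of these data known.

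Among junction genes the changes were in both directions. JUP, plakoglobin of adherens junctions and desmosomes, rose by 1.09, 1.02 and 0.79 (SE 0.06) in PIM1 minus control, PIM1 + WT minus WT and PIM1 + MM minus MM, and DSP, which ties desmosomes to keratin filaments, fell (-1.003, -1.51 and -1.57, SE 0.09). Tight junction genes were also split, with CLDN7 higher by 0.73, 0.64 and 0.61 (SE 0.11) and CGN lower (-0.75, -0.60 and -0.38, SE 0.07). Of the epithelial surface genes, PRSS8, a membrane serine protease, rose by 1.26, 1.61 and 1.97 (SE 0.09), and S100P, a calcium-binding protein, by 1.19, 1.33 and 2.02 (SE 0.06). The epithelial transcription factors ELF3 (0.56, 0.87 and 0.42, SE 0.07) and KLF5 (0.85, 0.34 and 0.64, SE 0.06) were called higher in all 3. Their list, which includes splicing regulators, had 13 tested genes. Calls in it numbered 3 higher and 2 lower in PIM1 minus control, against 12.6% and 12.4% of all genes. They numbered 2 and 3 in PIM1 + WT minus WT, against 13.3% and 14.0%. In PIM1 + MM minus MM they numbered 2 and 0, against 10.0% and 9.38%. GRHL1 was called lower in PIM1 + WT minus WT (-0.33, adjusted p = 0.0114).

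The mesenchymal lists held both directions too, but together had more genes called higher than lower. In PIM1 minus control, 7 cadherin, cytoskeleton and surface genes were called higher and 1 lower. Transcription factors numbered 3 and 1 there, and matrix genes 11 and 2. In PIM1 + WT minus WT the counts were 6 and 2, 2 and 2, and 7 and 3. In PIM1 + MM minus MM they were 4 and 2, 1 and 0, and 5 and 3. The shares of all genes are those given above. The genes named next are examples of each direction. NT5E, the ectonucleotidase CD73, rose by 1.15, 1.04 and 1.01 (SE 0.07), and CD44, the hyaluronan receptor, fell (-0.62, -0.89 and -0.88, SE 0.09). The transcription factor FOXC1 rose by 0.84, 0.63 and 1.02 (SE 0.10), and SNAI1, the paralog of SNAI2, fell by 0.51 (SE 0.08, adjusted p = 0.00166) in PIM1 + WT minus WT and was at -0.06 (adjusted p = 0.715) in PIM1 minus control and -0.19 (adjusted p = 0.148) in PIM1 + MM minus MM. SPARC, a matrix glycoprotein, rose by 0.69, 0.64 and 0.72 (SE 0.09), and LOXL2, which crosslinks collagen, fell (-0.42, -0.83 and -0.57, SE 0.06). The differences given here as a rise or a fall had limma adjusted p below 0.05.

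TGF-beta signalling is a main inducer of the transition. Of 24 tested genes in the pathway list, calls numbered 8 higher and 5 lower in PIM1 minus control, 6 and 4 in PIM1 + WT minus WT, and 8 and 5 in PIM1 + MM minus MM, where the shares of all genes were 12.6% and 12.4%, 13.3% and 14.0%, and 10.0% and 9.38%. LTBP1, which stores latent TGF-beta in the matrix, rose by 1.72, 1.24 and 0.82 (SE 0.06). ID3, an inhibitor of helix-loop-helix factors, fell (-0.88, -0.96 and -1.07, SE 0.08), and SMAD3, a signal transducer of the pathway, fell (-0.56, -0.94 and -0.90, SE 0.06). INHBA, a subunit of activins, rose by 0.77, 0.55 and 1.09 (SE 0.06).

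With stable PIM1, genes of these lists differed between the NFATC1 forms in both directions. The lower NFATC1 and PIM1 signals with the wild-type form cannot be told apart from the form here either. In PIM1 + WT minus PIM1 + MM, across dyes, 9 mesenchymal genes were called higher and 6 lower and 5 epithelial genes each way, against 8.54% and 7.50% of all genes. COL6A2, a collagen VI chain, was 1.28 higher (SE 0.05), MYL9, a myosin light chain, 1.03 higher (SE 0.09), MMP14, a membrane-bound matrix metalloproteinase, 0.95 higher (SE 0.07), and TGFB1, the ligand, 0.87 higher (SE 0.05). Of the epithelial lists, ELF3 (0.79), SPINT1 (0.74), NECTIN1 (0.48) and CTNNB1 (0.44) were called higher, and KLF5 (-0.34) and PKP2 (-0.36) were among those called lower. TJP1, a scaffold of tight junctions, was at -0.40 (adjusted p = 0.00585), CNN1, the smooth muscle protein calponin, at -0.39 (adjusted p = 0.0163), INHBA at -0.38 (adjusted p = 0.00303), SPARC at -0.36 (adjusted p = 0.0324) and S100P at -0.29 (adjusted p = 0.0146), all called lower. The interaction was called for 5 mesenchymal genes higher and 0 lower and for 2 epithelial genes higher and 1 lower, against 1.70% and 0.482% of all genes. Of the TGF-beta pathway list, 2 genes were called higher and 1 lower in both of these contrasts. The interaction was called higher for COL6A2, MYL9, MMP14 and TGFB1, at 0.79 for COL6A2, 0.78 for MYL9, 0.78 for MMP14 and 0.65 for TGFB1 (adjusted p from 0.00464 to 0.0185), and lower for INHBA (-0.54, adjusted p = 0.0184) and S100P (-0.68, adjusted p = 0.00988). The 2 epithelial genes called higher in it were CTNNB1 (0.54, adjusted p = 0.02) and SPINT1 (0.45, adjusted p = 0.0495). In WT minus MM, COL6A2 (0.49, adjusted p = 0.00938) and S100P (0.40, adjusted p = 0.0288) were the called genes of these lists.

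Genes of like pattern were sought for members whose group means spanned at least 0.5 after each dye's mean was removed, which were EPCAM (0.86) and SNAI2 (0.52). Over 12 dye-centred samples and 14292 candidate genes, the highest Pearson correlations with EPCAM were those of RMI1 (0.9942), HPRT1 (0.9935) and LCTL (0.9935), and with SNAI2 those of TRMT1L (0.9739), PALB2 (0.9689) and DPY19L2P1 (0.9655). These are descriptions of samples that share arrays and a common stable PIM1 difference.

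The samples were checked against markers of prostate epithelium and of other cells. The basal markers KRT5 and TP63 and the luminal markers KLK3 and ACP3 were well above background in 0 of 12 channels, and the other 6 of 8 luminal markers in all 12. Of 9 fibroblast and stroma markers 2 were well above background in every channel and 5 in none, which were COL1A2, COL3A1, DCN, LUM and THY1, and their summed linear level was 1140 to 1200 in control, WT and PIM1 + WT samples, 1380 and 1390 in PIM1 and 1190 to 1280 in MM and PIM1 + MM. Of 4 leukocyte markers 3 were well above background in every channel (summed level 1410 to 1620 in the groups without stable PIM1, 1740 and 1810 in PIM1, 2130 and 2230 in PIM1 + WT and 1490 and 1500 in PIM1 + MM), and of 3 endothelium markers 2 (319 to 354 without stable PIM1, 444 to 489 with it). Their part in the differences of the members was not tested.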

How the data were processed

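Total RNA of 12 samples of the cell line PC-3 in 6 groups was hybridized to 6 two-colour Agilent arrays on 2 slides, and each sample was read from its own dye channel as the labels give it. The authors deposited, per spot, raw intensity (median signal and background median), a processed signal that is background-subtracted and dye-normalized, and flags of Feature Extraction 11.0.1.1, together with log2 values per spot, which differed by at most 0.0844 from quantile normalization of the log2 median signals. Which signal column the study imported is not given in the sources used here, and the median signal was used.

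Flagged spots were left out, spots of a probe averaged, and probes kept above the 90th percentile of 153 negative control spots in at least 2 channels (31486 of 34127), without background subtraction. Log2 values were quantile normalized and the median taken over the probes of a symbol, given by the RefSeq transcript of each probe through the gene table of GRCh38.p14 (26377 probes), while other probes kept their own names. Limma 3.58.1 in R 4.3.3 modelled a mean for each group over all 12 samples, and p-values were adjusted over 25748 genes within each of 8 comparisons. On simulated data with 200 genes changed by 1, 97% were recovered for PIM1 minus control and 90.5% for the interaction. No member differed by that much, so recovery of differences as small as the members' was not tested. There were 0 saturated spots. Depth is not defined for arrays, and their number limits the precision.

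The members and lists were chosen with earlier results of these data known. Beside the members, the text names by rule the 3 genes of each list with the largest called difference of one sign on both slides in each comparison, reference and targeted genes, and the 3 genes most like each member in pattern, and the markers of prostate epithelium and of other cells. Of the listed genes so found, those given in the report were picked after their values were seen. Some genes that the rule names are not reported here. Alternatives were normexp, loess with Aquantile, median centring, use of the processed signal or of the deposited log2 values, other filters and probe summaries, slide as a block, array as a random block, only the groups compared, stricter and unadjusted thresholds, the first 33 rows of spots left out of PIM1 + MM replicate 2, and each sample left out. The 2 contrasts between stable PIM1 differences and the leaving out of 1 array, and those contrasts by probe, were added after the data were seen.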

Additional observations from a re-analysis of the deposited data

Results flagged for a closer look

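In all, 3 differences between stable PIM1 effects, tested as contrasts of the same limma fit, passed an adjusted p of 0.05. The stable PIM1 difference of KRT8 was 0.59 higher with WT NFATC1 than without NFATC1 (SE 0.10, adjusted p = 0.0136) and 0.45 higher with MM NFATC1 than without (SE 0.10, adjusted p = 0.0247). That of ZEB1 was 0.66 higher with MM NFATC1 than without (SE 0.10, adjusted p = 0.00406). PIM1 minus control compares Cy5 with Cy3 and the others lie within a dye, so a dye difference enters each of the 3 contrasts. Under median centring of each channel their values were 0.93, 0.89 and 0.92 and none passed (adjusted p = 0.739, 0.37 and 0.37). With the array of replicate 1 of control and of PIM1 left out they were 0.61, 0.47 and 0.61 and all passed. The KRT8 values are those of the probe annotated to a non-coding transcript, and the other KRT8 probes did not pass: A_23_P14072 was at 0.05 with WT (adjusted p = 0.843) and -0.34 with MM (adjusted p = 0.066), and A_24_P67395 at -0.0220 (adjusted p = 0.981) and -0.72 (adjusted p = 0.131). For ZEB1 with MM both probes passed, at 0.46 (adjusted p = 0.0107) and 0.85 (adjusted p = 0.0051).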

How the results depend on the processing

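CDH1 and FN1 lay near the background, where only bounds can be given. Of 21 called differences of members, the sign was the same under every alternative except median centring of each channel (17 of 21), the mean over probes (19) and the probe with the highest mean (18), and 3, 19 and 15 were still called. Median centring put CDH1 at 0.26 and CDH2 at -0.39 in PIM1 minus control, CDH2 at -0.0473 in PIM1 + WT minus WT and VIM at 0.0046 in PIM1 + MM minus PIM1. The probe with the highest mean put KRT8 at 0.27, -0.0662 and -0.21 in PIM1 minus control, PIM1 + MM minus MM and PIM1 + MM minus PIM1 and ZEB1 at -0.0347 in the last, and the mean over probes put KRT8 at -0.0523 and -0.0210 in the latter 2, these probes disagreeing as the report gives. FN1 in PIM1 + MM minus PIM1 ranged from -0.83 to 0.32 with 1 sample left out. In PIM1 minus control 4 members were called, 2 with only the groups compared, 0 at a log2 fold change of 1, 2 without the array of raised FN1 signals, and 2 to 4 with samples left out. In PIM1 + WT minus WT 6 were called, 1 under median centring and 0 at a fold change of 1. In PIM1 + MM minus MM 6 were called, 0 under median centring, 1 with only the groups compared, 0 at a fold change of 1 and 2 to 7 with samples left out. In PIM1 + MM minus PIM1 4 were called, 0 under median centring, 1 on the processed signal, 2 by the highest probe, 0 with only the groups compared, 0 at a fold change of 1 and 1 to 4 with samples left out. In PIM1 + WT minus PIM1 + MM 1 was called, 0 after normexp, under median centring, with only the groups compared or at a fold change of 1, 2 after loess, on the processed signal, by the highest probe, by the mean over probes or with the slide as a block, 4 with the filter in all channels, array as a random block or unadjusted p, and 0 to 3 with samples left out. The interaction went from 0 to 1 with the filter in all channels (ZEB1) and to 2 with array as a random block (EPCAM and ZEB1) or unadjusted p, and WT minus control from 0 to 1 with unadjusted p. Of these counts, the cause of the changes was not tested. Replicate numbers, which are those of the slides, were not shown to pair samples: 7 of 15 pairs of groups had a correlation over 0.1 (0.0513 to 0.833), and 4 of the 12 on different arrays. The replicate block, with slide as a fixed term, kept all 21 calls and added KRT8 (-0.20, adjusted p = 0.0314) and KRT19 (0.31, adjusted p = 0.0429) in PIM1 minus control, KRT18 (0.20, adjusted p = 0.0359) in PIM1 + WT minus PIM1 + MM, and VIM (-0.19, adjusted p = 0.0413) and ZEB1 (0.21, adjusted p = 0.0391) in PIM1 + MM minus MM. Of 1703 alternative values of the 59 differences not called, 69 changed sign and 55 were called.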
